A study of Mus musculus with 16 samples.

Results

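The mRNA of 10 histone lysine acetyltransferases other than KAT7 was followed in cells with and without Kat7. The genes were taken by symbol from the 27179 genes counted in each library: Kat5, Kat6a, Kat6b and Kat8 of the MYST family, Kat2a and Kat2b of the GNAT family with the type B enzyme gene Hat1, the coactivator acetyltransferase genes Ep300 and Crebbp, and the p160 coactivator gene Ncoa3. All 10 passed the filter on low counts. The question was whether the level of any of them differed where Kat7 was absent, and by how much set against the level of Kat7 that was lost.

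The cells were mouse neural stem and progenitor cells (NSPC), grown as neurospheres from the ganglionic eminences and cortices of E14.5 foetuses. Null cells were Kat7lox/lox NesCreT/+ and intact cells were Kat7+/+ NesCreT/+, so both genotypes carried a Cre transgene under Nestin sequences, which are active in neural progenitors. Proliferating cells had been kept in growth conditions for 3 passages and 3 days, and differentiating cells had spent 3 days after passage 3 in cortical neuron medium with laminin as the substrate. Each of the 4 groups had 4 libraries from separate foetal isolates. The sources used here do not say which proliferating and differentiating libraries came from the same foetus.

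Library totals ran from 16.8 M to 47.9 M counts, and the members had between 470 and 15249 counts in any library. Libraries of a group correlated at 0.948 to 0.994 (Pearson r of log2 CPM, counts per M counts of a library). The 2 intact libraries numbered 1 stood furthest from their groups, at 0.970 to 0.974 with the other intact proliferating libraries and at 0.948 to 0.976 with the other intact differentiating libraries. Summed markers of microglia stayed under 1 CPM in every library and those of endothelium at 4.59 CPM or below, whereas the neural stem cell list summed to between 2778 and 7346 CPM. The 5 fibroblast and meninges markers summed to 46.8 to 125 CPM in intact and 15.4 to 25.3 CPM in null differentiating libraries, the highest being intact differentiating replicate 1. Of these, 4 were lower in null differentiating cells (22% of all tested genes were) and 2 in null proliferating cells (19.7% were). None of these markers was at 0, and their part in the results was not tested.

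Lysine acetyltransferases transfer acetyl groups from acetyl coenzyme A to histone tails and other proteins. KAT7 (HBO1) belongs to the MYST family, whose members work in multi-subunit complexes. KAT7, KAT6A and KAT6B share scaffold proteins of the BRPF group and ING reader subunits. KAT5 is the catalytic subunit of the TIP60 complex, KAT8 that of the MSL and NSL complexes, and KAT2A and KAT2B alternate in the SAGA and ATAC complexes. HAT1 acetylates newly made histone H4 before it is deposited on DNA, together with RBBP4 or RBBP7. Ep300 and Crebbp encode the enhancer coactivators p300 and CBP, which p160 proteins such as NCOA3 bring to transcription factors.

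The start-site sequences of 2 members are shown because their mRNA moved in opposite directions when either genotype differentiated. RefSeq starts in GRCm38.p6 were found for 8 of the 10 members, and the 250 bases before each were searched on both strands for an ETS core (CCGGAAG), the box CCAAT, a GC box (GGGCGG), an E2F motif (TTTNNCGC) and a CHR motif (TTTGAA). Capitals mark the matches, in either orientation. The first window is Kat6b (chr14:21499520-21499769, plus strand), which lies inside the gene's annotated span, and the second is Kat2a (chr11:100712468-100712717, minus strand); neither holds an exon in GENCODE vM21.
Kat6b: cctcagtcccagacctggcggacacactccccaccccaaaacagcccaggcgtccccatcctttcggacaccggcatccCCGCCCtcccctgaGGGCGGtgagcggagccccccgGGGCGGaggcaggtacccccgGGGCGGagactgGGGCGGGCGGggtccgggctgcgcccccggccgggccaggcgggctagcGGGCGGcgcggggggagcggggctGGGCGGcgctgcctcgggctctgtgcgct
Kat2a: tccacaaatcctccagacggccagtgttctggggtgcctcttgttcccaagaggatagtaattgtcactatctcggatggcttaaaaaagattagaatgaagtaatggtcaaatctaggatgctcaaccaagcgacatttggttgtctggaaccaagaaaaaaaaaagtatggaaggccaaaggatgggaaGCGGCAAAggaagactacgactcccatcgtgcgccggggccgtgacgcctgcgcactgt
The Kat6b window was 78.8% G and C and held 8 GC box matches, overlapping ones counted separately, where the median over the 27025 genes with a start was 52% G and C and 33% of windows held a match. GC box letters were also found for Kat8, Hat1, Ep300 and Crebbp. The Kat2a window held an E2F match, as did that of Ep300, against 4.4% of all windows. An ETS core was found only for Hat1 among the 8 members, against 7.07% of all windows. The 250-base window of Hat1 overlaps an exon and UTR of Hat1 in GENCODE vM21, and whether the match itself lies in them was not looked up. The match is shown with its flanks (chr2:71389221-71389250, plus strand) because Hat1 had the widest range of the members.
Hat1: tccttgcggtcaCTTCCGGcccgggagcgc
CCAAT was found for Kat5, Kat8, Kat2b and Hat1 (34.5% of all windows) and TTTGAA for Kat5 (16.3%). These matches are letters in a window and were not linked to any level.

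Kat7 itself checked the labels. Its level, in CPM scaled by the trimmed mean of M values (TMM), was 132, 145, 140 and 142 in the intact proliferating libraries and 107, 101, 103 and 100 in the intact differentiating libraries. The 4 null proliferating libraries held 8 Kat7 counts in all, 0.0551% of the intact level (95% Poisson interval 0.0238 to 0.109%, counting error only). The 4 null differentiating libraries held 1 count, 0.0068% of the intact level (0.000172 to 0.0379%).

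In proliferating cells 3 of the 10 members differed between genotypes at an adjusted p under 0.05, where 38.6% of the 15177 tested genes did. Ncoa3 and Kat2b were higher in null cells (19% of all genes were) and Kat5 was lower (19.7% of all genes were). In differentiating cells 5 of 10 were called, all higher in null cells, against 46.4% of all genes called and 24.3% called higher: Hat1, Ncoa3, Kat2b, Ep300 and Kat6a. Of all genes, 22% were called lower there and no member was. Libraries of the 2 genotypes did not overlap for 4 members in each state, beside 39% of all genes in proliferating and 45.3% in differentiating cells. The shares of members called in either direction, or without overlap, lie near those over all genes. The shares by direction do so less in differentiating cells, where 5 of 10 were higher and none lower. This depended on the scale: with library totals, Kat6a and Ep300 lost their calls there. Among all genes called in that comparison, 60.6% were lower with library totals, against 47.5% with TMM. The median log2 fold change of the 10 members was 0.10 in proliferating cells, beside -0.01 over all tested genes, and 0.26 in differentiating cells, beside 0.04. The median size of the change regardless of sign was 0.12 against 0.30 over all genes in the first comparison and 0.26 against 0.32 in the second. The all-gene medians used fold changes with a small count added, and those of the members did not. All tested genes also include genes with far fewer counts than the 470 or more of each member, so the sizes are not like for like. Against a minimum change of 1.5-fold, no member passed in proliferating cells (10.8% of genes did) and Hat1 alone passed in differentiating cells (17.4% of genes did). In bulk RNA such as this, fewer cells of a type and less RNA per cell cannot be told apart.

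**Figure D1:**
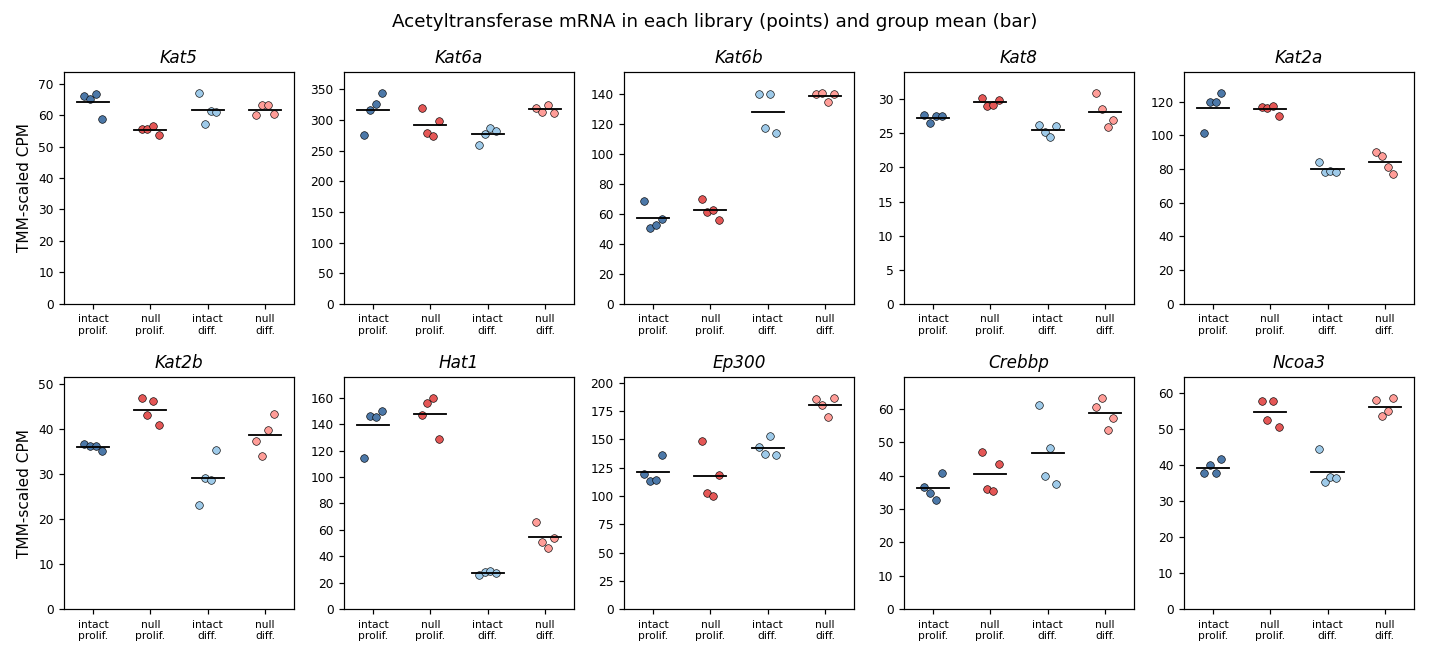
TMM-scaled CPM of each of the 10 members (y axis, linear, from 0) in the 4 libraries of each group (points) with the group mean (bar). Ncoa3 is higher in null than in intact cells in both states, Hat1 is low in every differentiating library and lowest in the 4 intact ones (25.7 to 29.1 CPM), and Kat6b is high in every differentiating library.

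**Figure D2:**
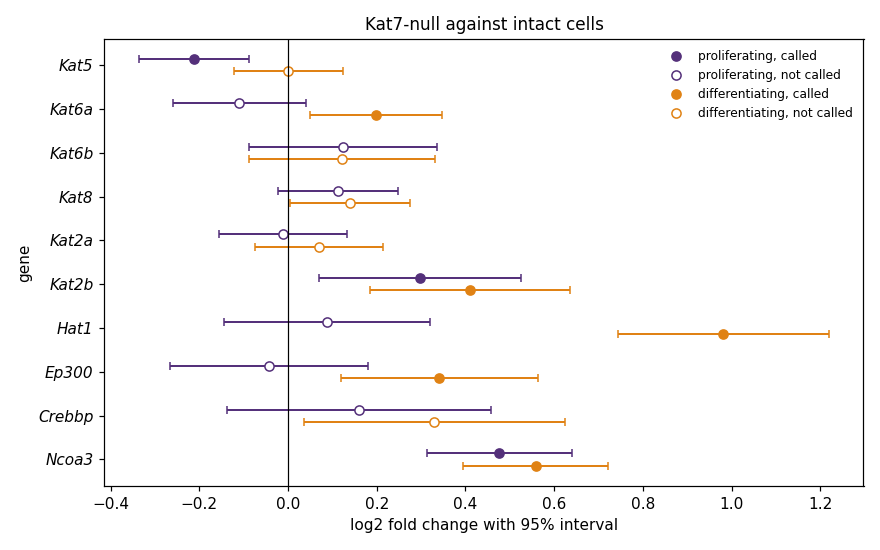
Log2 fold change of null against intact cells with its 95% interval (x axis) for each member (y axis), in proliferating and differentiating cells; filled points passed the test over all genes. Hat1 in differentiating cells lies furthest from 0, at 0.98, and the other intervals end at or below 0.72.

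Of the MYST genes, Kat5 had 66.1, 65.3, 66.7 and 58.6 CPM in intact and 55.6, 55.6, 56.7 and 53.8 CPM in null proliferating libraries. All 4 null libraries lay below all 4 intact ones, and the log2 fold change was -0.21 ± 0.06 (SE, adjusted p = 0.00947). In differentiating cells Kat5 had 57.3 to 67.1 CPM in intact and 60.1 to 63.3 CPM in null libraries, a log2 difference of 0.00 with a 95% interval of -0.12 to 0.12.

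Kat6a, a MYST gene like Kat6b, had 276, 316, 326 and 344 CPM in intact and 319, 278, 275 and 298 CPM in null proliferating libraries. These overlapped (log2 difference -0.11, 95% interval -0.26 to 0.04, adjusted p = 0.235). Without intact proliferating replicate 1, the lowest intact library, Kat6a was called lower in null cells (-0.17, adjusted p = 0.042), as it was with library totals as the scale (-0.18, adjusted p = 0.0341). In differentiating cells it had 259, 277, 287 and 283 CPM in intact and 320, 312, 325 and 312 CPM in null libraries. Every null library was above every intact library there, by 0.20 ± 0.07 on the log2 scale (adjusted p = 0.0308). This call was lost in several other fits, among them that with library totals as the scale (0.11, adjusted p = 0.192), DESeq2 (0.15, adjusted p = 0.0721) and that without intact differentiating replicate 1 (0.17, adjusted p = 0.0786).

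For Kat6b and Kat8 no genotype difference passed the test in the fit of all 16 libraries, and the intervals are those of that fit. Kat6b had 50.9 to 69.1 CPM in intact and 56.0 to 70.3 CPM in null proliferating libraries, and 114 to 141 CPM against 135 to 141 CPM in differentiating libraries. Its interval on the fold scale was 0.941 to 1.26 in both states. Without the 2 intact libraries numbered 1, Kat6b was called higher in null proliferating cells (log2 0.22, adjusted p = 0.0382). Kat8 had 27.7, 26.5, 27.5 and 27.6 CPM in intact and 30.2, 29.0, 29.1 and 29.9 CPM in null proliferating libraries. These did not overlap, yet the fold interval was 0.984 to 1.19 (adjusted p = 0.179). In differentiating cells the Kat8 interval was 1.003 to 1.21 (adjusted p = 0.0839). Without null differentiating replicate 3, Kat8 was called higher in null differentiating cells (adjusted p = 0.0458).

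The MYST genes were next summed per length, as CPM per kilobase of counted gene length (RPKM), so that genes could be added. In intact cells Kat7 made up 21.4% ± 0.61 (SD, n = 4) of the summed mRNA of the 5 MYST genes while proliferating and 16.2% ± 0.32 while differentiating. The 4 MYST genes other than Kat7 summed to 85.9 ± 1.64 RPKM in intact and 82.1 ± 3.03 RPKM in null proliferating cells, a null to intact ratio of 0.956 ± 0.0397 (SD carried over from the libraries). With Kat7 included, the sums were 109 ± 2.23 and 82.1 ± 3.02 RPKM, a ratio of 0.752, with all 4 null sums below the 4 intact sums. In differentiating cells the 4 genes summed to 89.0 ± 2.69 RPKM in intact and 96.8 ± 1.51 RPKM in null libraries, a ratio of 1.09 ± 0.037 that was 1.02 with library totals as the scale and 0.998 as TPM. With Kat7 included the sums there were 106 ± 3.08 and 96.8 ± 1.51 RPKM, a ratio of 0.911, again with the 4 null sums below the 4 intact sums. The summed MYST mRNA including Kat7 was thus lower in null cells in both states under each of these scalings, the ratio being at most 0.752 in proliferating and 0.911 in differentiating cells. These are mRNA levels, and no protein or histone acetylation was analysed here.

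**Figure D3:**
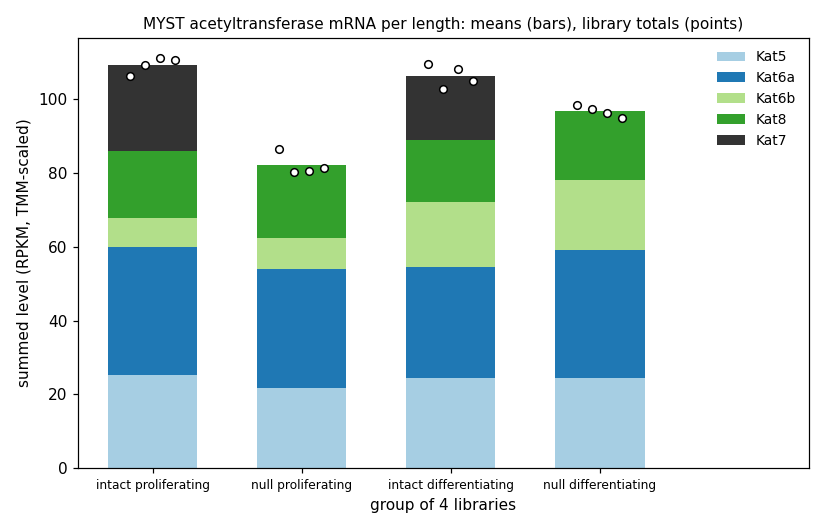
Summed RPKM of the 5 MYST genes in each group: stacked bars are group means of Kat5, Kat6a, Kat6b, Kat8 and Kat7, and points are the sums of the 4 libraries. The null sums (80.1 to 86.6 RPKM proliferating, 94.96 to 98.46 differentiating) lie below the intact sums (106 to 111 and 103 to 109 RPKM), and the dark Kat7 segment is absent in null cells.

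Over all 10 members the summed RPKM was 244 ± 15.6 in intact and 249 ± 10.7 in null proliferating cells, a ratio of 1.02 ± 0.0785 that was 0.971 with library totals as the scale and 0.973 as TPM. With Kat7 included the TMM-scaled ratio was 0.933 ± 0.0697. In differentiating cells it was 166 ± 4.75 and 203 ± 8.65 RPKM, a ratio of 1.22 ± 0.0625. With Kat7 included the ratio there was 1.11 ± 0.0563, but 1.04 with library totals as the scale and 1.01 as TPM. The mean sum with Kat7 was 19.2 RPKM higher in null than in intact differentiating cells. Hat1 is the member whose own RPKM differed most there, at 17.5 ± 0.944 in intact and 34.5 ± 5.43 in null cells.

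Partner genes were counted beside the shares of all tested genes called, which were 19% higher and 19.7% lower in null proliferating cells and 24.3% higher and 22% lower in null differentiating cells. Of the subunits that KAT6A and KAT6B work with, none of 5 tested was called in proliferating cells, and Brpf1 (0.27 ± 0.09) and Brd1 (0.21 ± 0.06), both scaffolds that KAT7 also uses, were higher in null differentiating cells. In the TIP60 complex of KAT5, 6 of 15 genes were lower and none higher in null proliferating cells, beside 19.7% of all genes lower. The 3 with the lowest adjusted p were Vps72 (-0.43 ± 0.07), which binds the histone variant H2A.Z, Yeats4 (-0.34 ± 0.08), a reader of acetylated histones, and the ATPase gene Ruvbl2 (-0.32 ± 0.10). In differentiating cells none of the 15 was lower and 3 were higher: Brd8 (0.25 ± 0.06), the scaffold gene Trrap (0.45 ± 0.14) and the remodelling ATPase gene Ep400 (0.37 ± 0.12). The MSL and NSL genes of KAT8 had 1 higher and 2 lower of 12 in proliferating cells, among them Msl1 at -0.34 ± 0.07. In differentiating cells 5 were higher, among them Kansl3 (0.21 ± 0.06) and Hcfc1 (0.30 ± 0.08), and Phf20 was lower (-0.36 ± 0.10). The median log2 fold change of the TIP60 list was -0.16 in proliferating and 0.03 in differentiating cells, beside -0.01 and 0.04 over all genes.

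Of the GNAT genes, Kat2b had 36.8, 36.3, 36.2 and 35.1 CPM in intact and 46.9, 43.3, 46.3 and 40.9 CPM in null proliferating libraries. The groups did not overlap and the log2 fold change was 0.30 ± 0.11 (adjusted p = 0.0378). The call was lost with library totals as the scale (0.22, adjusted p = 0.135) and in 7 of the 8 fits that left out a proliferating library (adjusted p up to 0.0900). In differentiating cells Kat2b had 23.2, 29.2, 28.7 and 35.5 CPM in intact and 37.3, 34.2, 39.8 and 43.5 CPM in null libraries. Intact replicate 4 lay above the lowest null library, and the log2 fold change was 0.41 ± 0.11 (adjusted p = 0.00531). In a fit of the 2 differentiating groups alone it was 0.36 and missed the threshold (adjusted p = 0.0571).

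Kat2a, which encodes the alternative subunit to KAT2B, had 101.1 to 125.1 CPM in intact and 111 to 118 CPM in null proliferating libraries, with a log2 interval of -0.16 to 0.13. In differentiating cells it had 78.3 to 84.2 CPM against 76.98 to 89.97 CPM, with an interval of -0.07 to 0.21. Of the 18 other SAGA and ATAC genes, 1 was higher and 4 were lower in null proliferating cells, led by the adaptor gene Tada2b (0.34 ± 0.06), Taf6l (-0.30 ± 0.08) and Yeats2 (-0.23 ± 0.07). In null differentiating cells 2 were higher and 5 lower, the lowest adjusted p being those of Atxn7l3 (-0.77 ± 0.12) of the deubiquitinating module, Tada1 (-0.37 ± 0.06) and Yeats2 (0.26 ± 0.07). The list's medians were -0.10 and -0.15, beside -0.01 and 0.04 over all genes. Of all tested genes, 19% were higher and 19.7% lower in null proliferating cells, and 24.3% and 22% in null differentiating cells.

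Hat1 had 115, 146, 146 and 150 CPM in intact and 147, 156, 160 and 129 CPM in null proliferating libraries. These overlapped (log2 difference 0.09, 95% interval -0.14 to 0.32), and without intact proliferating replicate 1, the low library, the difference was 0.00. In differentiating cells Hat1 had 25.7, 28.2, 29.1 and 27.1 CPM in intact and 66.2, 51.0, 46.1 and 54.2 CPM in null libraries. All 4 null libraries were above all 4 intact ones, a 1.97-fold difference (95% interval 1.67 to 2.33, log2 0.98 ± 0.11, adjusted p = 7.22e-06). It also passed against a minimum of 1.5-fold (adjusted p = 0.00258).

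Most listed genes of dividing cells differed in the same direction as Hat1 between genotypes in differentiating cells, but not in proliferating cells. The 10 genes of the cycling cell list (Mki67, Top2a, Mcm3, Mcm5, Pcna, Ccnb1, Ccnb2, Aurkb, Cdk1 and Ccna2) summed to 277 to 405 CPM in intact and 536 to 654 CPM in null differentiating libraries, and none was at 0. Of the 10, 8 were higher and Ccnb2 was lower in null differentiating cells, beside 24.3% and 22% of all tested genes. In proliferating cells they summed to 3085 to 3660 CPM in intact and 2543 to 3118 CPM in null libraries. None was higher and 2 were lower there, beside 19% and 19.7% of all tested genes. The part of these genes in the Hat1 result was not tested. Of the 5 histone chaperone genes listed with HAT1, Asf1b (0.91 ± 0.15), Rbbp7 (0.30 ± 0.10) and Asf1a (0.25 ± 0.09) were higher in null differentiating cells. In proliferating cells Rbbp7 was higher (0.36 ± 0.10) and Nasp (-0.41 ± 0.11) and Asf1b (-0.42 ± 0.14) were lower.

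Ep300 had 119, 113, 114 and 136 CPM in intact and 148, 102, 100 and 119 CPM in null proliferating libraries, which overlapped (log2 difference -0.04, 95% interval -0.27 to 0.18). In differentiating cells it had 144, 137, 153 and 136 CPM in intact and 186, 180, 169 and 186 CPM in null libraries. Every null library was above every intact library, by 0.34 ± 0.10 on the log2 scale (adjusted p = 0.0145). With library totals as the scale the difference was 0.25 and missed the threshold (adjusted p = 0.0555). Crebbp, its close relative, had 32.8 to 40.7 CPM in intact and 35.5 to 47.3 CPM in null proliferating libraries. In differentiating cells it had 61.2, 39.8, 48.4 and 37.4 CPM in intact and 60.7, 63.3, 53.8 and 57.2 CPM in null libraries. The log2 difference was 0.33 ± 0.14 (adjusted p = 0.0627), and without intact differentiating replicate 1, whose Crebbp level was the highest of its group, it was 0.49 and passed (adjusted p = 0.00338).

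Ncoa3 had 37.7, 39.9, 37.8 and 41.8 CPM in intact and 57.7, 52.6, 57.7 and 50.6 CPM in null proliferating libraries. It had 44.5, 35.3, 36.6 and 36.3 CPM in intact and 57.9, 53.5, 54.9 and 58.5 CPM in null differentiating libraries. The groups did not overlap in either state. Ncoa3 was 1.39-fold higher in null proliferating cells (95% interval 1.24 to 1.56, adjusted p = 0.000216) and 1.47-fold higher in null differentiating cells (1.32 to 1.65, adjusted p = 3.55e-05). It was the only member besides Kat2b called in the same direction in both comparisons. These share no library, but they come from the same fit, and whether they share foetuses is not known. The test of the difference between the states did not pass (0.08 on the log2 scale, 95% interval -0.15 to 0.31).

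Of the 10 partners listed with p300, CBP and the p160 proteins, 3 were higher and 2 lower in null proliferating cells. The shares over all tested genes there were 19% higher and 19.7% lower. Carm1, an arginine methyltransferase bound by p160 proteins, was lower (-0.45 ± 0.06), as was Creb1 (-0.35 ± 0.07), the transcription factor for which CBP is named. Ncoa1, the p160 paralogue of Ncoa3, was higher, at 78.32 to 86.35 CPM in intact and 101.4 to 125.3 CPM in null libraries (0.46 ± 0.14). Cited4 was called higher (2.86 ± 0.58) at levels of 0.180 to 0.461 CPM in intact and 1.22 to 4.14 CPM in null libraries. In null differentiating cells Cited1 (1.56 ± 0.19) and Ncoa1 (0.53 ± 0.14) were higher and Carm1 was lower (-0.24 ± 0.06). The shares over all tested genes there were 24.3% higher and 22% lower. Ncoa2, the remaining p160 gene, had 79.5 to 91.7 CPM in null and 82.5 to 96.8 CPM in intact proliferating cells, and 115 to 119 CPM and 101 to 132 CPM in differentiating cells.

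Lists of neural cell markers also moved with genotype, and their part in the differences above was not tested. Over all tested genes, 19% were higher and 19.7% lower in null proliferating cells, and 24.3% and 22% in null differentiating cells. Of the 10 oligodendrocyte lineage markers 7 were lower in null cells in each state, of the 10 astrocyte markers 5 were higher while proliferating and 7 while differentiating, and of the 10 neuron markers 5 were lower and 1 higher while differentiating. In proliferating cells 3 neuron markers, Syt1, Dcx and Stmn2, were lower. Of the 10 neural stem cell markers 7 were higher in null differentiating cells, and 2 were higher and 1 lower in null proliferating cells. That list summed to 2778 to 3706 CPM in intact and 4348 to 5432 CPM in null differentiating libraries. The oligodendrocyte lineage list summed to 3070 to 3465 CPM in intact and 1833 to 2332 CPM in null proliferating cells, and to 4175 to 8425 CPM against 2213 to 2679 CPM in differentiating cells. The 4175 CPM was that of intact differentiating replicate 1, and the other 3 intact libraries were at 6876 CPM or above. Astrocyte markers summed to 1325 to 2045 CPM in intact and 2570 to 3844 CPM in null proliferating cells, and to 1964 to 3083 CPM against 5700 to 9085 CPM in differentiating cells. The neuron list summed to 6058 CPM in intact differentiating replicate 1 and to 2224 to 3272 CPM in the other 3 intact libraries, a range that held the 2363 to 2789 CPM of the null differentiating libraries. Of these lists, only Mog was at 0, in the intact proliferating group.

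Ranked per length, Hat1 was the highest member in proliferating cells, at 88.3 ± 10.4 RPKM in intact and 93.8 ± 8.81 RPKM in null cells, with no overlap with the next gene. Kat2a (38.2 ± 3.45 and 37.9 ± 0.914 RPKM) and Kat6a (34.6 ± 3.19 and 32.1 ± 2.25 RPKM) followed, and the libraries of these neighbours overlapped in intact cells. Kat5, Kat8 and Ep300 came next in both genotypes without overlap. Crebbp was the lowest, at 4.84 ± 0.448 RPKM in intact cells, where it overlapped with Ncoa3, and at 5.40 ± 0.77 RPKM in null cells, where it did not. In differentiating cells Kat6a led in both genotypes, at 30.3 ± 1.34 RPKM in intact and 34.8 ± 0.671 RPKM in null cells. Hat1 had rank 4 in intact cells, where it overlapped with Kat6b, and rank 2 in null cells, where it overlapped with Kat6a. Kat2b, Crebbp and Ncoa3 held the 3 lowest places in both genotypes and overlapped among themselves.

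On differentiation, 6 of the 10 members were called in intact cells, where 72% of all tested genes were, and 6 in null cells, where 69% were. In intact cells 2 were higher (36.7% of all genes were) and 4 lower (35.3%), and in null cells 4 were higher (34.6% of all genes) and 2 lower (34.4%). The libraries of the 2 states did not overlap for 5 members in intact and 6 in null cells, beside 62.8% and 67% of all genes. Of the members called, 2 passed against 1.5-fold in each genotype, Hat1 and Kat6b, beside 37.8% of all genes in intact and 33.9% in null cells. Hat1 fell to 0.198-fold of its proliferating level in intact cells (95% interval 0.167 to 0.234, adjusted p = 2.15e-10) and to 0.367-fold in null cells (0.312 to 0.433, adjusted p = 3e-08). Kat6b rose 2.23-fold in intact cells (1.92 to 2.58, adjusted p = 1.08e-07) and 2.22-fold in null cells (1.92 to 2.58, adjusted p = 1.02e-07). Kat2a fell by 0.54 ± 0.07 on the log2 scale in intact cells (adjusted p = 5.02e-06) and fell by 0.46 ± 0.07 in null cells (adjusted p = 2.36e-05).

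Of the coactivator genes, Crebbp was called higher on differentiation in both genotypes, whereas the Ep300 response passed in null cells and narrowly missed the threshold in intact cells. Crebbp rose by 0.36 ± 0.14 in intact cells (adjusted p = 0.0287) and by 0.53 ± 0.14 in null cells (adjusted p = 0.00308). The intact call was lost in 7 of 26 other fits. Among them were those without intact differentiating replicate 1 (0.21, adjusted p = 0.125), without intact proliferating replicate 2 or 3, and of the 2 compared groups only. Ep300 rose by 0.62 ± 0.10 in null cells (adjusted p = 8.48e-05) and differed by 0.24 ± 0.10 in intact cells, where it missed the threshold (adjusted p = 0.0529). The Ep300 response in intact cells passed in 11 of 26 other fits, among them DESeq2 (0.29, adjusted p = 0.0146) and that with library totals as the scale (0.31, adjusted p = 0.0126). The difference between the Ep300 responses was not called (0.38, adjusted p = 0.0739), though it was without null proliferating replicate 1 (0.52, adjusted p = 0.00499). Kat2b (-0.31 ± 0.11, adjusted p = 0.0169) and Kat6a (-0.19 ± 0.07, adjusted p = 0.0236) were lower in differentiating intact cells. Both calls were lost in several other fits, among them that without intact differentiating replicate 1, at -0.21 (adjusted p = 0.05) for Kat2b and -0.16 (adjusted p = 0.0631) for Kat6a. In null cells the Kat2b response was -0.20 (adjusted p = 0.111), and it was called without intact differentiating replicate 1 (-0.20, adjusted p = 0.0463). Kat5 was higher in differentiating null cells (0.16 ± 0.06, adjusted p = 0.0262), a call lost in 3 of the fits that left out 1 null library. Kat8 and Ncoa3 were called in neither genotype, and their intervals ran from -0.24 to 0.20 on the log2 scale.

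**Figure D4:**
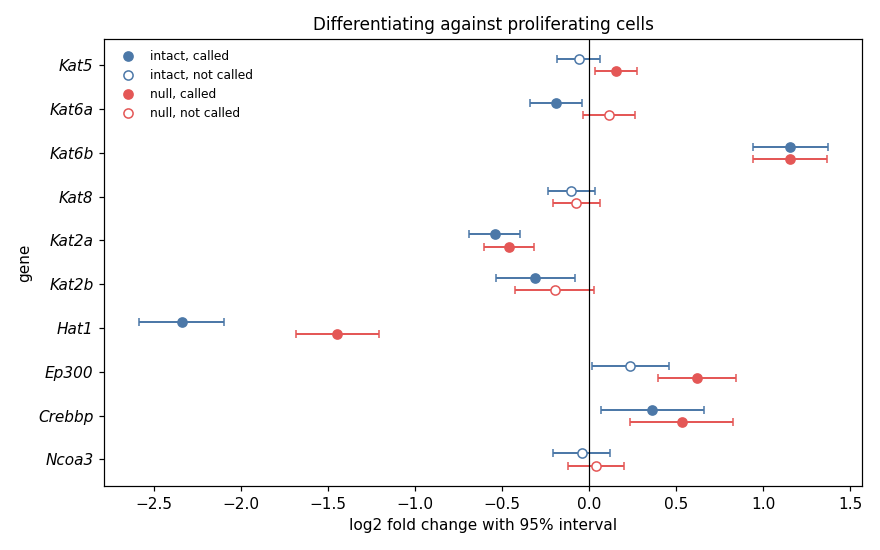
Log2 fold change of differentiating against proliferating cells with its 95% interval (x axis) for each member (y axis), in intact and null cells; filled points passed the test. Hat1 fell in both genotypes and by less in null cells (-1.44 against -2.34), while Kat6b rose in both (1.16 and 1.15).

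The difference between the 2 responses was tested directly, and 2 of the 10 members were called, both higher in the null response, beside 22.7% of all genes called and 12.7% called higher. For Hat1 the null response minus the intact response was 0.89 ± 0.16 (95% interval 0.56 to 1.23, adjusted p = 0.0011), and against a minimum of 1.5-fold it missed the threshold (adjusted p = 0.115), which 5.05% of all genes passed. For Kat6a it was 0.31 ± 0.10 (0.10 to 0.52, adjusted p = 0.0369). The Kat6a call was lost in 16 of the 25 other fits, such as with a minimum count of 50 (0.24, adjusted p = 0.0772) and without intact proliferating replicate 2 (0.31, adjusted p = 0.0625). For Kat5 the difference missed the threshold (0.21, adjusted p = 0.0743), and it was called without intact differentiating replicate 1 (0.25, adjusted p = 0.0241) or without intact proliferating replicate 4 (0.26, adjusted p = 0.0367). For Kat6b the difference was 0.00, with an interval of -0.30 to 0.29. Of the cycling cell list, 9 of 10 were called higher in the same test. No member was lower there, where 9.93% of all genes were.

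The partner genes of Hat1 fell with it on differentiation, 5 of 5 in both genotypes, beside 35.3% of all tested genes called lower in intact and 34.4% in null cells. The shares of all genes called higher were 36.7% in intact and 34.6% in null cells. The log2 fold change of Asf1b was -3.21 ± 0.15 in intact and -1.88 ± 0.14 in null cells, and that of Rbbp7 was -1.42 ± 0.10 and -1.47 ± 0.10. Of these 5, Asf1b alone was called for the difference between responses (1.34 ± 0.20, adjusted p = 0.000417). Of the 5 partner genes of KAT6A and KAT6B none was called higher in either genotype, and Ing5, a subunit that reads methylated histone H3, was lower in both (-1.08 ± 0.12 in intact, -0.86 ± 0.12 in null cells). In the TIP60 complex 2 genes were higher and 6 lower in intact cells, led by Ruvbl2 (-1.05 ± 0.10) and Brd8 (-0.66 ± 0.06), and 6 were higher and 6 lower in null cells, led by Ruvbl2 (-0.87 ± 0.10) and Epc1 (0.50 ± 0.06). Of the SAGA and ATAC genes, 7 were higher and 4 lower in intact cells and 5 were higher and 8 lower in null cells. Atxn7 was lower in both (-0.75 ± 0.06 and -0.50 ± 0.06). Of the MSL and NSL genes 3 were higher and 5 lower in intact cells and 5 were higher and 5 lower in null cells, with Kansl1 higher in both (0.57 ± 0.07 and 0.66 ± 0.07). Of the coactivator partners, 4 were higher and 3 lower in intact cells, and 3 were higher and 2 lower in null cells. Crtc1, a CREB coactivator, was higher in both (1.31 ± 0.15 and 0.87 ± 0.14).

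The members varied over different ranges. The 4 group means of Hat1 spanned 2.42 on the log2 CPM scale, which 19.7% of tested genes exceeded, and those of Kat6b spanned 1.29. Kat8, Kat5 and Kat6a spanned 0.21, 0.21 and 0.20, and 96.5% to 97% of tested genes had a wider range. Genes closest in pattern were found by the root mean square (RMS) difference of log2 CPM, each gene centred on its mean over the 16 libraries. For Hat1 they were Rrm1, the large subunit of ribonucleotide reductase (RMS 0.09), Polq, a DNA polymerase gene (0.16), and Rdm1 (0.17). For Kat6b they were Fbxo21 (0.09), Wdr7 (0.11) and the histone demethylase gene Kdm4b (0.12). For Crebbp, with the next widest range at 0.70, they were the histone methyltransferase gene Ash1l (0.09), the Mediator gene Med13 (0.10) and the myosin gene Myo5a (0.11). These are descriptions over libraries that share 4 groups.

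In GRCm38, Hat1 (Entrez gene 107435) lies on chromosome 2 from 71389260 to 71441622, Ncoa3 (17979) on chromosome 2 from 165992637 to 166073242, Kat6b (54169) on chromosome 14 from 21499216 to 21672478 and Kat2b (18519) on chromosome 17 from 53566774 to 53672721. Kat5 (81601), Kat6a (244349), Kat8 (67773), Kat2a (14534), Ep300 (328572) and Crebbp (12914) lie on chromosomes 19, 8, 7, 11, 15 and 16. Of the members, only Kat8 overlaps another gene of the count table, Prss8, by 122 bases, and Prss8 had a median count of 0.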

How the data were processed

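Raw counts per gene, with a gene length in bases, were deposited for each of 16 libraries as whole numbers, per the file headers. Polyadenylated RNA was sequenced as 75-base paired reads, per the labels' protocols. The submitters' processing notes name bcl2fastq, featureCounts and the build mm10; the sources used here do not give the aligner, annotation or strand setting. Of 27179 Entrez genes, 25275 matched a RefSeq symbol. Separate foetal isolates were the replicates. The members and lists were chosen with earlier results of these data known.

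Genes with enough counts (filterByExpr, minimum count 10; 15177 genes) were fitted in edgeR 4.0.16 (R 4.3.3) with a mean for each of the 4 groups over all 16 libraries, trimmed-mean scaling and the quasi-likelihood test. P-values were adjusted by Benjamini-Hochberg over all tested genes and called under 0.05. SE and 95% intervals are those of the fitted log2 fold change. CPM and RPKM were computed from the counts, the library scale and the deposited length. Each member had 470 or more counts in each library. The text names the 10 members, Kat7, and from each partner list up to 3 called genes with the lowest adjusted p per genotype comparison and up to 2 in the other comparisons, others only to complete a family; 3 genes of nearest pattern were taken for each of the 3 members with the widest range. Alternatives were DESeq2 1.42.0, other scalings and count filters, a minimum fold, fits of the compared groups only, a replicate block, and leaving out each library.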

Additional observations from a re-analysis of the deposited data

Results flagged for a closer look

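In groups of 4 libraries, 5 of the 40 combinations of member and group had a library whose gap to its nearest neighbour exceeded the 95% limit of Dixon's test, where chance gives about 1 in 20. Hat1 was at 114.7 CPM in intact proliferating replicate 1, and the other 3 libraries were at 146 to 150 CPM. Ncoa3 was at 44.48 CPM in intact differentiating replicate 1, and the others were at 35.3 to 36.6 CPM. Kat2a was at 84.17 CPM in the same library, above 78.3 to 78.9 CPM in the others. Kat6b was at 135.1 CPM in null differentiating replicate 3, below 140 to 141 CPM in the others, and Kat8 was at 26.47 CPM in intact proliferating replicate 2, below 27.5 to 27.7 CPM in the others. Of these 5, 3 were in the 2 intact libraries numbered 1, which also correlated least with their groups. Without intact differentiating replicate 1 the genotype difference of Ncoa3 in differentiating cells was 0.64 on the log2 scale, against 0.56 with it.

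For 2 members the response to differentiation differed between genotypes by the interaction test, by 0.894 for Hat1 and by 0.308 for Kat6a (null minus intact, log2). The Kat6a call was lost in 16 of the 25 other fits, and the Hat1 call only against a minimum of 1.5-fold.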

How the results depend on the processing

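Over the 22 calls of a member, 562 values under alternatives kept the direction and 488 kept the call; 74 lost it and none reversed. Of the 28 member results not called, 9 were called under some alternative. Against a minimum of 1.5-fold, the members called went from 3 to 0 and from 5 to 1 for genotype in proliferating and differentiating cells, from 6 to 2 for each differentiation response and from 2 to 0 for their difference, and all genes called were 1645, 2641, 5730, 5150 and 766 in that order (5864, 7036, 10926, 10468 and 3442 otherwise). Genotype calls in differentiating cells were 3 with library totals as the scale and 3 in a fit of those groups only. In proliferating cells they were 5 without the 2 intact libraries of number 1, which added Kat6a (-0.17) and Kat6b (0.22). Differing responses were 1 with DESeq2 size factors, without a count filter and with a minimum count of 50. Leaving out each library in turn gave 2 to 3, 4 to 5, 3 to 7, 5 to 7 and 1 to 3 members called in the 5 comparisons. The intact response had its lowest count, 3, without intact differentiating replicate 1. Where a cause is not given by the construction of the alternative, the cause was not tested.

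Null to intact ratios with library totals as the scale were 0.906 (4 MYST genes, proliferating), 0.713 (with Kat7), 1.02 (4 MYST genes, differentiating), 0.856 (with Kat7), 1.15 (10 members, differentiating) and 1.04 (with Kat7). As TPM they were 0.908, 0.714, 0.998, 0.836, 1.12 and 1.01. Among all genes called, the lower share went from 50.9% to 63.3% in proliferating and from 47.5% to 60.6% in differentiating cells with library totals; the median of all genes moved by at most 0.0886 (log2). The lowest count of a member in a library was 470, for Kat8 in null proliferating replicate 2.

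Deviations from the group mean were correlated between libraries of the same number, and 3 of 16 pairs matched best with their own number (correlations from -0.231 to 0.126). The 3 over 0.1 were others, intact pairs 1, 2 and 4 across the states. Pairs between genotypes cannot come from the same foetus. The check cannot exclude shared foetuses, and numbers were not taken as pairs. With a replicate block, differing responses went from 2 to 1 member, genotype calls in differentiating cells from 5 to 6, and the other counts stayed within 1 of theirs.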

Other observations

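Beyond these families, 12 further acetyltransferase genes were listed and all were tested. In null proliferating cells 3 were higher and 3 lower, beside 19% and 19.7% of all tested genes. In null differentiating cells 3 were higher and 1 lower, beside 24.3% and 22%. Clock, a circadian transcription factor gene with reported acetyltransferase activity, was higher in null cells in both states, at 89.0 to 96.0 CPM against 61.9 to 64.3 CPM while proliferating (0.54 ± 0.05, adjusted p = 1.86e-06) and 70.5 to 77.9 CPM against 51.5 to 56.0 CPM while differentiating (0.47 ± 0.05, adjusted p = 4.05e-06). Atat1, which encodes the tubulin acetyltransferase, was lower in null cells in both states, at 13.8 to 17.2 CPM against 48.2 to 75.4 CPM (-1.96 ± 0.17, adjusted p = 9.52e-07) and 80.7 to 85.8 CPM against 170 to 303 CPM (-1.41 ± 0.16, adjusted p = 8.01e-06). The log2 fold change of Atat1 exceeded in size that of each of the 10 members in the same comparison.

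Esco2, the cohesin acetyltransferase gene used in DNA replication, had 6.32 to 8.61 CPM in intact and 11.9 to 16.1 CPM in null differentiating cells (0.90 ± 0.15, adjusted p = 0.000182). Its log2 fold change on differentiation was -3.30 ± 0.16 in intact cells and -2.41 ± 0.15 in null ones, and the responses differed by 0.89 ± 0.20 (adjusted p = 0.00654), beside 0.89 ± 0.16 for Hat1.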
